A study of Mus musculus with 6 samples.

Results

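The B7 ligands are a family of surface proteins of the immunoglobulin superfamily through which one cell tells a T cell whether to respond to the antigen it has just recognised. The 7 genes described here, Cd80, Cd86, Cd274, Pdcd1lg2, Icosl, Cd276 and Vtcn1, were found by gene name, older names included, among the probes of a whole mouse genome array. They are 7 of 28030 genes on that array and are covered by 10 of its 41174 probes. Of the 7 genes, 6 passed the filter on dim probes and were tested among 18205 genes. Vtcn1 did not pass.

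Thymic epithelial cells (TEC) are the stromal cells on which developing T cells mature and are selected. Those of the cortex rescue thymocytes with a useful receptor. Those of the medulla (mTEC) show thymocytes a wide range of self antigens under the control of the regulator Aire, and remove cells that react strongly or turn them into regulatory T cells. CD80 and CD86 engage the activating receptor CD28 and the inhibitory receptor CTLA-4 on T cells, and CD80 is in common use as a surface marker of mature mTEC. ICOS ligand engages ICOS, a relative of CD28. PD-L1 (Cd274) and PD-L2 (Pdcd1lg2) engage the inhibitory receptor PD-1, while B7-H3 (Cd276) and B7-H4 (Vtcn1) are family members without a settled receptor.

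The cells came from 4-week-old C57BL/6 mice that carried a bacterial artificial chromosome with EGFP under Meis1 regulatory sequence, the line Tg(Meis1-EGFP)FO156Gsat/Mmcd, which every group shared. CD45-negative, EpCAM-positive TEC were sorted into 3 gates: Meis1-high (bright EGFP, small cells), Meis1-low (intermediate EGFP, large cells) and Meis1-negative (no EGFP, small cells). Each gate was hybridised on 2 one-colour arrays, each from a pool of 6 mice. Replicate 1 of every gate lay on slide 1 and replicate 2 on slide 2. The gates are levels of a reporter rather than of the Meis1 protein, and reporter level and cell size were set together, so they cannot be told apart between Meis1-low and the other gates. The labels do not say that the pools came from separate animals, so the p-values measure the spread between these arrays.

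Levels are log2 signals relative to the 75th percentile of the same array, so 0 is that percentile. They can be compared between arrays for a given probe and not between probes. In these sorted pools, fewer cells with a transcript and less transcript per cell cannot be told apart. A probe counts as well above background where the scanner software marks it so. The 75th percentile lay between 73.3 and 165 signal units, and the mark was given to 53.1% to 69.6% of the spots, depending on the array.

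Epithelial identity genes held their median level in the Meis1-high and Meis1-low gates and on Meis1-negative replicate 2, and were lower on Meis1-negative replicate 1. Ptprc and the thymocyte markers were higher on both Meis1-negative arrays than on the others, so replicate 2 was not free of leukocyte transcripts either. All 10 epithelial identity genes on the list (Epcam, Krt5, Krt8, Foxn1 and others) were well above background on every array, but their median level was 2.21 on Meis1-negative replicate 1 and between 4.12 and 4.86 on the other 5 arrays. On the same array the summed level of 14 thymocyte and T cell markers was 10.2, against 4.87 on Meis1-negative replicate 2 and 3.06 to 3.46 on the Meis1-high and Meis1-low arrays. Ptprc, which encodes the CD45 used to exclude leukocytes, had levels of -0.69 and 0.37 in Meis1-high cells, -1.0 and 0.43 in Meis1-low cells, and 5.16 and 3.17 in Meis1-negative cells. The ligands' differences from Meis1-negative cells are therefore given with and without Meis1-negative replicate 1. For other genes set against Meis1-negative cells, the level on each array is given or the count holds on slide 2 as well, which does not contain it. Its part in those results was not tested further. Meis1 itself had levels of 0.24 and 0.12 in Meis1-high cells, -2.35 and -1.61 in Meis1-low cells, and -3.20 and -0.99 in Meis1-negative cells.

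The probes are 60-base oligonucleotides, and their sequences show which stretch of each ligand was measured. The sequences are shown 5′ to 3′ in lower case, with no part marked, for the genes with a pair of probes, which check each other, and for Cd274 and Cd276. Positions are those of the array files on mm9, where an exon or intron was not looked up.
Cd80 probe A_51_P418295, chr16:38495628-38495688: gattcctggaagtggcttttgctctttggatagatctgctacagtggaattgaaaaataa
Cd80 probe A_52_P244005, chr16:38474174-38474233: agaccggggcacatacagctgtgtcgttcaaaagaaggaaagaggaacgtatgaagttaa
Cd86 probe A_51_P174723, chr16:36615381-36615440: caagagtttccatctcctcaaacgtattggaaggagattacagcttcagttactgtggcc
Cd86 probe A_52_P145861, chr16:36604506-36604565: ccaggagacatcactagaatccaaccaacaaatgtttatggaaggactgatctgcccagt
Icosl probe A_51_P520966, chr10:77542211-77542270: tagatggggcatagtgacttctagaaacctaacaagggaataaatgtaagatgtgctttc
Icosl probe A_52_P432647, chr10:77534559-77534618: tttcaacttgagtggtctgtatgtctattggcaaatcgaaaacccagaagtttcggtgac
Cd274 probe A_51_P248666, chr19:29462363-29462422: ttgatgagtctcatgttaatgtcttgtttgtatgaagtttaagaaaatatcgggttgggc
Cd276 probe A_51_P499551, chr9:58372107-58372150: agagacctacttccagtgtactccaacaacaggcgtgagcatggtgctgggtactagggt
The first Cd80 probe is annotated to AJ278965 and the second to NM_009855. Which transcript forms each of them detects was not looked up. The interval listed for Cd276 covers 44 of its 60 bases. Pdcd1lg2 (A_51_P383448, chr19:29545026-29545085) and Vtcn1 (A_52_P278327, chr3:100699254-100699313) had a probe each. The probe with the highest mean level stood for a gene in the tests: A_51_P418295 for Cd80, A_51_P174723 for Cd86 and A_51_P520966 for Icosl. No B7 probe was saturated on any array.

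**Figure D1:**
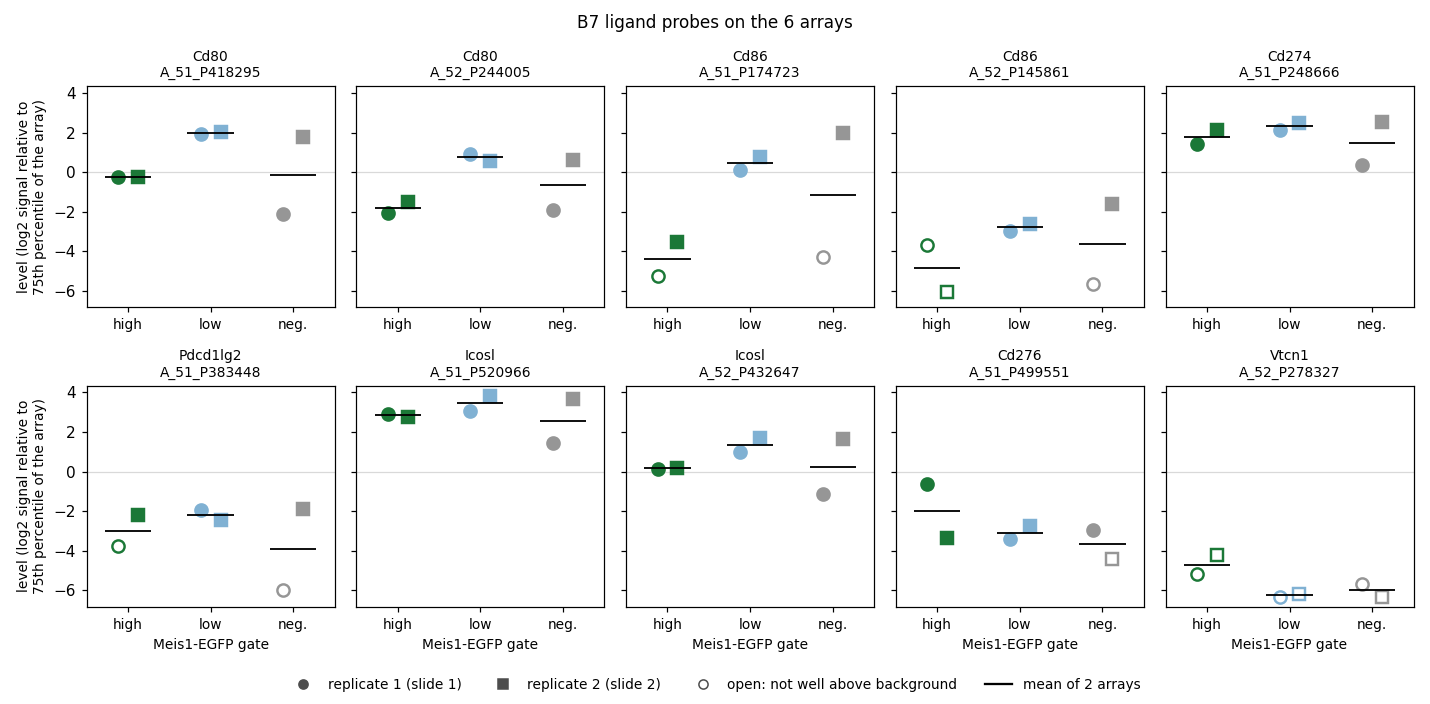
Level of each B7 probe on the 6 arrays (log2 signal relative to the 75th percentile of the array), by Meis1-EGFP gate. Circles are replicate 1 and squares replicate 2, open symbols were not well above background, and bars are means of 2 arrays. For Cd80, both Meis1-low arrays lie above both Meis1-high arrays with both probes, and the 2 Meis1-negative arrays lie far apart.

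Cd80 was lower in Meis1-high than in Meis1-low cells on every array. With probe A_51_P418295 it had levels of -0.27 and -0.27 in Meis1-high cells, 1.91 and 2.05 in Meis1-low cells, and -2.12 and 1.78 in Meis1-negative cells. The Meis1-high arrays nearly coincided, the Meis1-low arrays lay clearly above them, and the Meis1-negative arrays lay on either side of Meis1-high. The second probe, A_52_P244005, had levels of -2.07 and -1.53 in Meis1-high cells, 0.93 and 0.56 in Meis1-low cells, and -1.91 and 0.62 in Meis1-negative cells. It gave the same separation of Meis1-high from Meis1-low at a position elsewhere in the gene.

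The log2 difference of Cd80 between Meis1-high and Meis1-low was -2.25 ± 1.17 (SE, n = 2 per gate), a 4.76-fold lower signal in Meis1-high. It was -2.18 on slide 1 and -2.32 on slide 2. In the limma fit across all genes its adjusted p = 0.474, so it did not pass the threshold of 0.05, and the 95% interval of the difference ran from -4.98 to 0.48. The second probe differed by -2.54 ± 0.90 in a fit over all probes (adjusted p = 0.339 with limma). The shared estimate of the spread includes the wide Meis1-negative pair. With only the 4 arrays of the compared gates, an alternative chosen after seeing the data, the SE was 0.49 and the adjusted p = 0.0995 with limma.

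Cd86 had the widest range of the ligands across arrays. With probe A_51_P174723 its levels were -5.27 and -3.52 in Meis1-high cells, 0.12 and 0.76 in Meis1-low cells, and -4.30 and 1.98 in Meis1-negative cells. The first array of Meis1-high and the first of Meis1-negative were not well above background, while both Meis1-low arrays were. Meis1-negative replicate 2 was the highest of the 6 arrays. The second probe, A_52_P145861, was dim, with levels of -3.68 and -6.05 in Meis1-high cells, -2.95 and -2.62 in Meis1-low cells, and -5.64 and -1.61 in Meis1-negative cells. It was well above background on both Meis1-low arrays and on Meis1-negative replicate 2 alone.

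Between Meis1-high and Meis1-low, Cd86 differed by -4.83 ± 1.80 (SE, n = 2 per gate), with -5.39 on slide 1 and -4.28 on slide 2 (adjusted p = 0.332 with limma). The probe was not well above background on Meis1-high replicate 1, so the exact size rests partly on a background value. The second Cd86 probe gave a bound: Meis1-high cells had a signal at least 1.78-fold lower than Meis1-low cells, taking the lowest signal well above background on an array where the probe was dimmer than that (adjusted p = 0.583 with limma in a fit over all probes). With normexp background correction, which raises the dimmest signals, the difference of Cd86 was -1.47. The size of the difference is therefore uncertain by several fold. Its sign was the same with both probes. Both passed the filter through the Meis1-low gate alone, so that sign carries no weight as a measured direction.

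Icosl, the ligand of ICOS, was well above background on all 6 arrays with both probes. Probe A_51_P520966 had levels of 2.92 and 2.77 in Meis1-high cells, 3.08 and 3.83 in Meis1-low cells, and 1.42 and 3.68 in Meis1-negative cells. The Meis1-high arrays lay just below both Meis1-low arrays, and Meis1-negative replicate 1 was the lowest. Probe A_52_P432647 had levels of 0.11 and 0.20 in Meis1-high cells, 0.98 and 1.72 in Meis1-low cells, and -1.13 and 1.64 in Meis1-negative cells. On each slide the gates stood in the same order with both probes, but the order of the Meis1-high and Meis1-negative means turned with the probe. The difference of Meis1-high cells from Meis1-low cells was -0.62 ± 0.85 (SE, n = 2 per gate, adjusted p = 0.797 with limma) and -1.19 ± 0.95 with the second probe (adjusted p = 0.658 with limma over all probes), so neighbouring gates did not differ beyond the spread.

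Of the PD-1 ligands, Cd274 was measured on all arrays and Pdcd1lg2 was close to background on some. Cd274 had levels of 1.42 and 2.12 in Meis1-high cells, 2.15 and 2.46 in Meis1-low cells, and 0.38 and 2.53 in Meis1-negative cells. Apart from Meis1-negative replicate 1 these 5 arrays lay within a narrow band, and the Meis1-high and Meis1-low pairs almost touched. Cd274 differed by -0.53 ± 0.83 between Meis1-high and Meis1-low (95% interval from -2.47 to 1.40, adjusted p = 0.823 with limma). Pdcd1lg2 had levels of -3.78 and -2.19 in Meis1-high cells, -1.94 and -2.47 in Meis1-low cells, and -5.99 and -1.88 in Meis1-negative cells, and was not well above background on replicate 1 of Meis1-high and of Meis1-negative. Its Meis1-high and Meis1-low arrays overlapped, and its difference of -0.78 ± 1.29 had opposite signs on the slides, -1.84 and 0.28 (adjusted p = 0.838 with limma).

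Cd276 was highest in Meis1-high by its mean, unlike the ligands above. It had levels of -0.64 and -3.38 in Meis1-high cells, -3.41 and -2.75 in Meis1-low cells, and -2.93 and -4.41 in Meis1-negative cells, of which Meis1-negative replicate 2 was not well above background. Meis1-high replicate 1 stood apart as the highest array, and the other 5 arrays overlapped across gates. Meis1-high cells exceeded Meis1-low cells by 1.07 ± 1.01 (adjusted p = 0.705 with limma), with 2.77 on slide 1 and -0.63 on slide 2, and it became -0.30 without Meis1-high replicate 1. Within Meis1-high, replicate 1 exceeded replicate 2 by 2.74, and 99.2% of genes in that gate had a difference at or below this. With normexp background correction the difference from Meis1-low was 0.17.

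Vtcn1 was not well above background on any of the 6 arrays and was not tested. Its levels were -5.20 and -4.20 in Meis1-high cells, -6.33 and -6.17 in Meis1-low cells, and -5.67 and -6.31 in Meis1-negative cells, all of them below the lowest signal marked as well above background on the same array (-3.21, -4.03, -4.31, -4.17, -3.69 and -4.31 in that order). At this sensitivity a difference of Vtcn1 between gates was not detectable.

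Set against Meis1-low cells, Meis1-high cells had a lower Cd80 signal on every array with both probes. Cd274 and Icosl showed a narrower gap. Cd86 had the widest fitted gap, at -4.83, but its sign carries no weight, for the reason given above. With normexp background correction the difference was -1.47 for Cd86 and -1.64 for Cd80. Of the 6 ligands tested, 4 (Cd80, Cd86, Cd274 and Icosl) were lower on both slides in Meis1-high cells, where 40.7% of all genes tested were lower on both slides. None was higher on both slides, against 31.6% of all genes. The median difference of the 6 was -0.70, and -0.15 over all genes tested. For the same 4 ligands, both Meis1-high arrays lay below both Meis1-low arrays, as they did for 31% of all genes, and for none did they lie above, against 22.7%. None of the 6 passed an adjusted p of 0.05, as for 0% of all genes tested with limma. At an unadjusted p under 0.05, 1 of the 6 was lower, Cd86, against 8.26% of all genes, and 0 were higher, against 4.69%. Cd86 and Pdcd1lg2 passed the filter through the Meis1-low gate alone, so these counts carry no weight for them. With slide as a block, Cd80 had an adjusted p = 0.397 and Cd86 an adjusted p = 0.254 in limma.

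**Figure D2:**
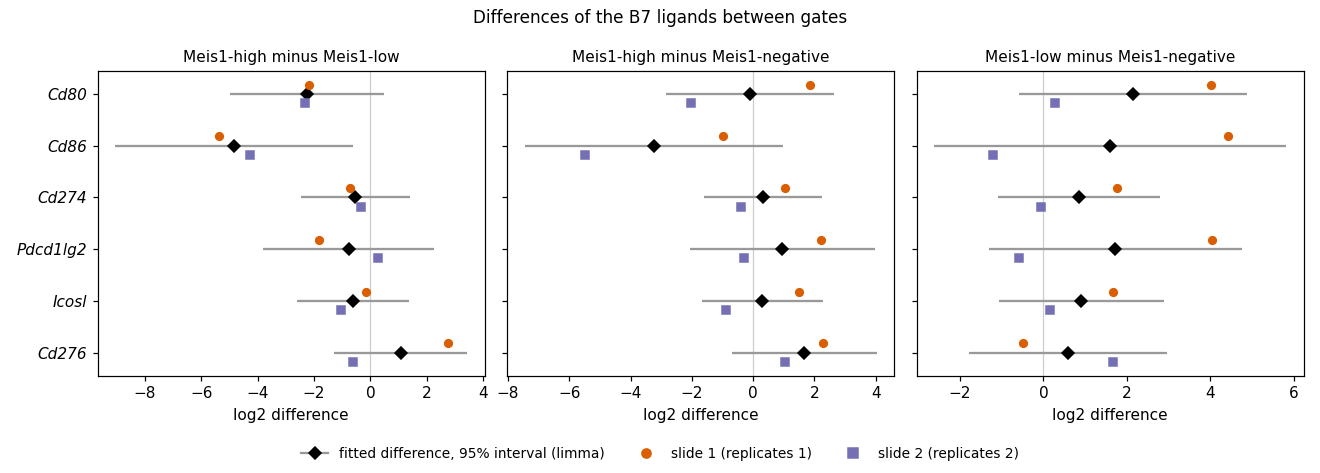
Log2 differences of the 6 tested ligands between gates. Diamonds are fitted differences over all arrays with their 95% intervals, circles are differences within slide 1 and squares within slide 2. In Meis1-high minus Meis1-low the slides lie close together for Cd80, at -2.18 and -2.32, whereas in the comparisons with Meis1-negative they are several log2 units apart for Cd80, Cd86 and Pdcd1lg2.

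Meis1-high and Meis1-negative cells are both small, and setting them side by side asks what goes with the reporter when cell size is alike. The slides disagreed in it for most ligands. Cd80 differed by -0.10 ± 1.17 (SE, adjusted p = 0.980 with limma), which was 1.85 on slide 1 and -2.04 on slide 2. The slide 1 value belonged to that probe. The second Cd80 probe differed by -1.15 ± 0.90 (adjusted p = 0.704 with limma over all probes), with -0.16 on slide 1 and -2.15 on slide 2. Cd86 differed by -3.23 ± 1.80 (adjusted p = 0.594 with limma), with -0.97 on slide 1, where neither array was well above background, and -5.50 on slide 2. Its second probe, also at background on slide 1 in both gates, gave 1.97 there and -4.44 on slide 2. Cd274, Pdcd1lg2 and Icosl were higher in Meis1-high on slide 1, by 1.04, 2.21 and 1.5, and lower on slide 2, by log2 differences of -0.41, -0.31 and -0.90. Cd276 differed by 2.29 on slide 1 and by 1.03 on slide 2, where the Meis1-negative array was at background. Its fitted difference of 1.66 ± 1.01 (adjusted p = 0.624 with limma) became 0.29 without Meis1-high replicate 1 and 3.03 without Meis1-high replicate 2.

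Without Meis1-negative replicate 1, Cd80 differed between Meis1-high and Meis1-negative by -2.05 (adjusted p = 0.460 with limma) and Cd86 by -6.37 (adjusted p = 0.179 with limma), close to the pattern against Meis1-low. Cd274 then differed by -0.76, Pdcd1lg2 by -1.11, Icosl by -0.83 and Cd276 by 2.40. That fit leaves 1 Meis1-negative array, which is assumed to vary like the other gates. Without Meis1-negative replicate 2, Cd80 differed by 1.85 with its first probe and Cd86 by -0.10. Of the 6 ligands, 1 was higher on both slides (Cd276) and 1 lower (Cd86), beside 28.4% and 30.7% of all genes tested, but each had a slide with a background value and neither count is a measured direction. The array pairs overlapped for all 6, whereas 19.3% of genes had both Meis1-high arrays above and 19.9% both below. None passed an adjusted p of 0.05 in limma, as for 0% of all genes, and none had an unadjusted p under 0.05, against 5.71% of genes higher and 4.82% lower.

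Between Meis1-low and Meis1-negative cells, 5 of the 6 ligands were higher in Meis1-low on slide 1, and Cd276 was not. On slide 2, Cd80, Cd274 and Icosl were nearly level. Cd80 differed by 2.15 ± 1.17 (SE, adjusted p = 0.615 with limma), with 4.03 on slide 1 and 0.27 on slide 2. Cd86 differed by 1.6 ± 1.80 (adjusted p = 0.811 with limma), with 4.42 and -1.22. Pdcd1lg2 gave 4.05 and -0.59 on the slides, Cd274 1.77 and -0.07, and Icosl 1.67 and 0.16. Cd276 gave -0.48 and 1.66. Cd86 and Pdcd1lg2 were not well above background on Meis1-negative replicate 1, nor Cd276 on Meis1-negative replicate 2. The second Cd80 probe gave 2.84 and -0.07, a fitted 1.39 ± 0.90 (adjusted p = 0.682 with limma over all probes). Of the 6 ligands, 2 (Cd80 and Icosl) were higher on both slides, where 33.8% of all genes were, and none was lower on both slides, against 28.7%. Cd80 alone had both Meis1-low arrays above both Meis1-negative arrays, as for 23.5% of all genes, though with its second probe the arrays overlapped and slide 2 was not higher, and no ligand had both below, against 15.8%. None passed an adjusted p of 0.05 in limma, as for 0% of all genes, and none had an unadjusted p under 0.05, against 5.03% of genes higher and 3.07% lower.

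These values rested on which Meis1-negative array was used. Without replicate 1, the difference of Cd80 between Meis1-low and Meis1-negative was 0.20 and that of Cd86 -1.54 (adjusted p = 0.999 for both with limma). Cd274, Pdcd1lg2, Icosl and Cd276 then differed by -0.22, -0.33, -0.22 and 1.33, in that order. Without replicate 2 they were 4.10 (adjusted p = 0.0351) and 4.74 (adjusted p = 0.0408), both past the threshold in that limma fit. Within Meis1-negative, replicate 1 lay below replicate 2 by -3.89 for Cd80, -6.28 for Cd86, -4.11 for Pdcd1lg2, -2.15 for Cd274 and -2.26 for Icosl. The values of Cd86 and Pdcd1lg2 rest on a replicate 1 signal at background. Across all genes of that gate, 2.46% had a replicate difference as low as that of Cd80 or lower, 15.0% for Cd274 and 13.7% for Icosl. Cd276 was higher on replicate 1, by 1.48.

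**Figure D3:**
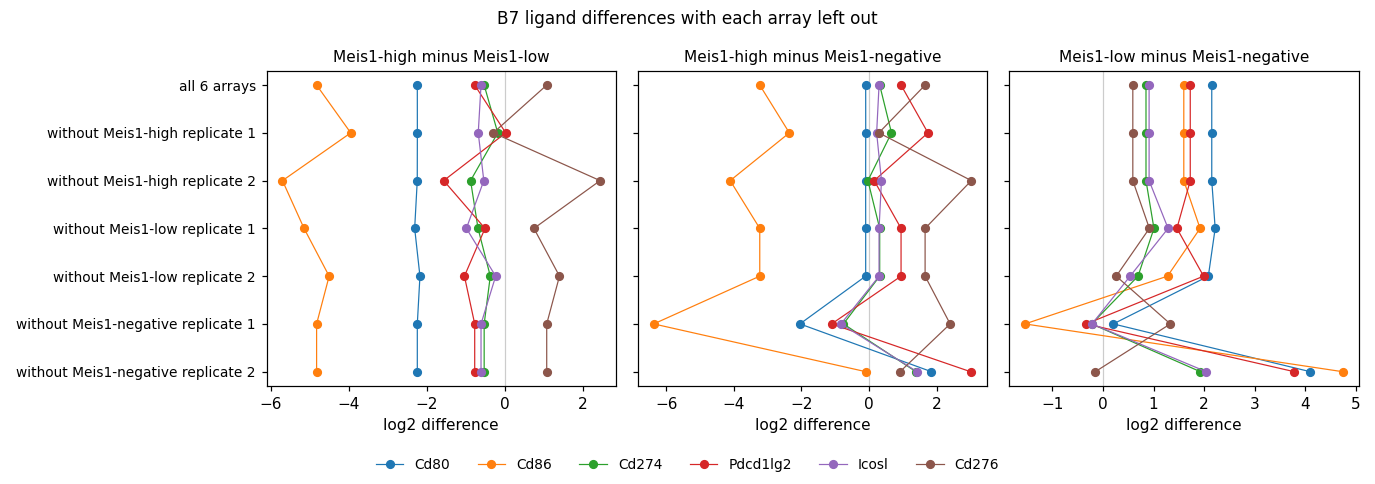
Log2 differences of the 6 tested ligands with all 6 arrays and with each array left out in turn, a line per ligand. For Meis1-high minus Meis1-low, Cd80 stays between -2.32 and -2.18, whereas the differences against Meis1-negative swing with the Meis1-negative array that is left out.

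By mean level over the pair of arrays, the order of the gates was Meis1-low, Meis1-negative, Meis1-high for Cd80 and Cd86, and Meis1-low, Meis1-high, Meis1-negative for Icosl, Cd274 and Pdcd1lg2. With the second Icosl probe Meis1-negative, at a mean of 0.25, stood just above Meis1-high, at 0.16. For Cd80 the means were -0.27 ± 0.0017 in Meis1-high cells, 1.98 ± 0.096 in Meis1-low cells and -0.17 ± 2.75 in Meis1-negative cells (SD, n = 2 each), and Meis1-negative did not differ from Meis1-high beyond its spread. For Cd86 they were -4.39 ± 1.24, 0.44 ± 0.46 and -1.16 ± 4.44, in that order of gates, and the Meis1-negative pair spanned both other gates. For Cd276 the order was Meis1-high, Meis1-low, Meis1-negative, with neighbouring gates overlapping. On the 5 arrays other than Meis1-negative replicate 1, Meis1-negative replicate 2 lay close to a Meis1-low array for Cd80, Cd274, Pdcd1lg2 and Icosl, and above both Meis1-low arrays for Cd86.

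The receptors CD28, CTLA-4, ICOS and PD-1 are made chiefly by T cells, and Cd28, Ctla4 and Icos were highest on the array where the ligands other than Cd276 were lowest or nearly so, Meis1-negative replicate 1. Cd28 had levels of -3.25 and -3.05 in Meis1-high cells, -3.96 and -4.27 in Meis1-low cells, and 1.54 and -1.73 in Meis1-negative cells. Icos had levels of -1.64 and -3.01 in Meis1-high cells, -0.72 and -1.28 in Meis1-low cells, and 3.1 and 0.67 in Meis1-negative cells, so that both Meis1-negative arrays were above all others. Ctla4 was not well above background on either Meis1-high array and had levels of -3.43 and -5.98 there, -2.75 and -2.35 in Meis1-low cells, and 1.89 and -1.69 in Meis1-negative cells. Of the 5 receptor genes, 4 were tested. Of these, 3 were lower in Meis1-high than in Meis1-negative on both slides, where 30.7% of all genes were. Rgmb, a coreceptor for bone morphogenetic proteins that also binds PD-L2, was the exception, with levels of 0.09 and 1.85 in Meis1-high cells, 0.83 and 1.02 in Meis1-low cells, and -2.43 and 1.23 in Meis1-negative cells. None passed the test in any comparison, as for 0% of all genes.

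Other relatives of the family lay with Cd80 between Meis1-high and Meis1-low. Of 17 B7-related and butyrophilin genes, 14 were on the array and 8 were tested, and 7 of the 8 were lower on both slides in Meis1-high cells (40.7% of all genes were), at a median difference of -1.88. Btnl9, a butyrophilin-like gene, had levels of -5.17 and -3.66 in Meis1-high cells, -0.47 and -0.90 in Meis1-low cells, and -1.89 and -2.04 in Meis1-negative cells, a difference of -3.73 ± 0.71 between Meis1-high and Meis1-low (adjusted p = 0.249 with limma). Meis1-high replicate 1 was not well above background for Btnl9. Skint9 differed by -1.95 ± 0.85 and Skint2 by -1.51 ± 0.74. Both belong to the Skint family, whose founding member Skint1 is known for its role in selecting skin-homing gamma-delta T cells, and probes of this family may not separate similar copies. Btnl10 differed by -2.16 ± 0.80. The exception was Vsir, the gene of the inhibitory ligand VISTA, named after its value was seen, at a difference of 0.49 in the fit. The members named here had adjusted p values between 0.249 and 0.444 in limma, Vsir aside.

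Of 11 costimulatory or co-inhibitory genes outside the family, 9 were tested. The list is mostly of ligands but holds the receptors Tnfrsf14 and Cd40. Cd40 is also counted in the lists of NF-kB input and of mature mTEC markers below. Of the 9, 6 were lower in Meis1-high than in Meis1-low on both slides and 2 higher. Of all genes tested, 40.7% were lower and 31.6% higher. The median difference of the 9 was -0.78. Tnfsf14, the cytokine LIGHT, was not well above background on either Meis1-high array and at least 6.50-fold lower there than in Meis1-low (adjusted p = 0.249 with limma). Lgals9, the gene of galectin-9, ran the other way at 1.99 ± 0.70 (adjusted p = 0.311 with limma), with levels of 1.39 and 1.86 in Meis1-high and -0.30 and -0.44 in Meis1-low. Tnfrsf14, the receptor for LIGHT, had levels of -1.40 and -2.27 in Meis1-high cells, -1.08 and -1.03 in Meis1-low cells, and -5.90 and -3.06 in Meis1-negative cells, the first of these not well above background. Nectin2, an adhesion protein, differed by -0.72 ± 1.16 between Meis1-high and Meis1-low. None of the 9 passed the test.

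Interferon-gamma signalling induces PD-L1 in many cells, and CMTM6 and CMTM4 keep PD-L1 protein from being degraded. All 9 genes of that list were tested, with a median difference of -0.04 between Meis1-high and Meis1-low. On both slides, 4 were higher and 4 lower in Meis1-high, beside 31.6% and 40.7% of all genes tested. Ifngr1, a chain of the interferon-gamma receptor, had levels of 2.24 and 2.49 in Meis1-high cells, 1.36 and 1.46 in Meis1-low cells, and 4.97 and 2.22 in Meis1-negative cells. Its partner chain Ifngr2 had levels of 4.41 and 5.08 in Meis1-high cells, 5.68 and 5.95 in Meis1-low cells, and 3.36 and 5.50 in Meis1-negative cells. The kinase gene Jak2 differed by 0.59 ± 0.81 and Cmtm4 by 0.63 ± 0.80 between Meis1-high and Meis1-low.

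RANK and CD40 signal through NF-kB to drive mTEC maturation. Of the 10 genes of that input, 9 were lower in Meis1-high than in Meis1-low on both slides and 1 higher, with a median of -0.74. Of all genes tested, 40.7% were lower on both slides and 31.6% higher. Traf6, an adaptor of both receptors, differed by -1.91 ± 0.83 (adjusted p = 0.395 with limma), Cd40 by -1.6 ± 0.91 (adjusted p = 0.513), Relb by -1.24 ± 0.83 (adjusted p = 0.584) and the kinase gene Ikbkb, measured on 1 of 2 Meis1-high arrays, by -1.24 ± 0.73 (adjusted p = 0.525). None passed the test.

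Markers of mature mTEC lay with Cd80 between Meis1-high and Meis1-low. Of the 14 markers, 13 were lower in Meis1-high than in Meis1-low on both slides, where 40.7% of all genes were, with a median of -1.03, and 4 had an unadjusted p under 0.05, against 8.26% of all genes. Their median level was 2.05 and 2.27 in Meis1-high cells, 3.67 and 3.44 in Meis1-low cells, and 0.87 and 3.72 in Meis1-negative cells. On slide 1 the gates stood in the same order as for the first Cd80 probe. With the second Cd80 probe, Meis1-negative, at -1.91, stood just above Meis1-high, at -2.07, on that slide. On slide 2 the median of the markers was slightly higher on the Meis1-negative array than on the Meis1-low array. Between Meis1-high and Meis1-low, the median difference was also -1.81 for dendritic cell and macrophage markers and -1.55 for B cell markers. The part of those cells in the values of the mTEC list was not tested. This list shares genes, Cd40 among them, with the list of RANK, CD40 and NF-kB input. Aire had levels of 1.19 and 2.69 in Meis1-high cells, 3.87 and 4.65 in Meis1-low cells, and 1.22 and 3.84 in Meis1-negative cells. The chemokine gene Ccl22 was among the genes most like Cd86, with levels of -3.96 and -3.01 in Meis1-high cells, 0.61 and 0.95 in Meis1-low cells, and -3.48 and 2.63 in Meis1-negative cells. Ccl17, a chemokine of the same receptor, differed by -3.07 ± 1.21 between Meis1-high and Meis1-low, Tnfrsf9 by -2.43 ± 0.75 and Hdc, the gene of histidine decarboxylase, by -2.39 ± 0.74, with adjusted p values between 0.283 and 0.365 in limma.

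**Figure D4:**
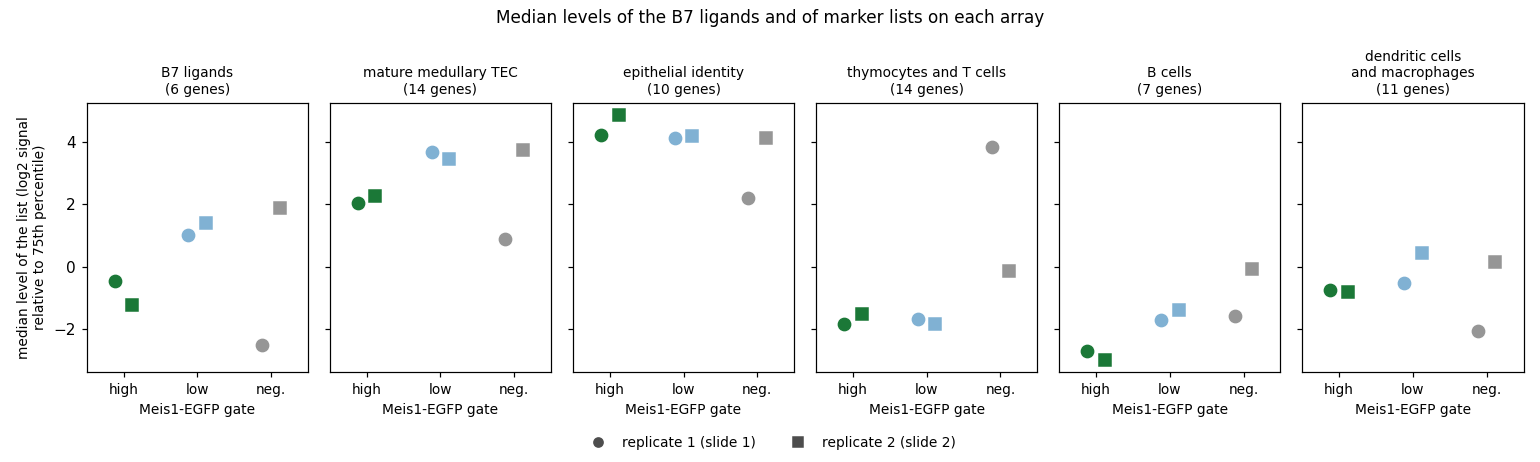
Median level of the 6 tested B7 ligands and of 5 marker lists on each array (log2 signal relative to the 75th percentile), by gate, with circles for replicate 1 and squares for replicate 2. B7 ligands and mature mTEC markers are lowest on Meis1-negative replicate 1, where the thymocyte markers are highest, at a median of 3.84.

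Dendritic cells, macrophages and B cells also carry CD80, CD86 and ICOS ligand, and markers of these cells were also lower in Meis1-high than in Meis1-low. Of all genes tested, 40.7% were lower and 31.6% higher on both slides when Meis1-high was set against Meis1-low. Of 14 dendritic cell and macrophage markers on the array, 11 were tested, and 8 were lower and 1 higher in that comparison, a median of -1.81. Their summed level was 4.06 and 3.98 in Meis1-high cells, 5.63 and 5.57 in Meis1-low cells, and 3.04 and 5.39 in Meis1-negative cells, and 8 to 13 of the 14 were well above background on an array. Adgre1, the gene of the macrophage antigen F4/80, had levels of 0.94 and 0.73 in Meis1-high cells, 3.43 and 3.07 in Meis1-low cells, and -0.42 and 2.34 in Meis1-negative cells. Itgam differed by -1.83 ± 0.71 between Meis1-high and Meis1-low, and Mrc1, the mannose receptor gene, had a signal at least 8.29-fold lower in Meis1-high cells than in Meis1-low cells (adjusted p = 0.249 with limma). Itgax, the gene of the dendritic cell integrin CD11c, had levels of -5.10 and -4.63 in Meis1-high cells, -2.86 and -3.50 in Meis1-low cells, and -3.30 and 0.90 in Meis1-negative cells. Mrc1 and Itgax passed the filter through the Meis1-low gate alone, so their differences, and their part in the count of 8, carry no weight. The part of dendritic cells, macrophages and B cells in the values of Cd80, Cd86 and Icosl was not tested.

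B cell markers were highest on Meis1-negative replicate 2, which also had the highest Cd86 level. Of 8 on the array, 7 were tested, with summed levels of 0.98 and 0.38 in Meis1-high cells, 2.73 and 2.11 in Meis1-low cells, and 1.88 and 2.89 in Meis1-negative cells. Cd79a, a chain of the B cell receptor complex, was not well above background in Meis1-high or Meis1-low and had levels of -3.11 and -1.33 in Meis1-negative cells. Ms4a1, the gene of CD20, had levels of -2.07 and -4.67 in Meis1-high cells, -2.26 and -1.38 in Meis1-low cells, and -1.35 and 1.08 in Meis1-negative cells. Cr2, a complement receptor, differed by -3.14 ± 0.70 between Meis1-high and Meis1-low (adjusted p = 0.254 with limma). On the Meis1-low arrays, Cd79a was thus not well above background while Cd86 was, and the part of B cells in the ligands on Meis1-negative replicate 2 was not tested.

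Markers of epithelium and stroma had medians above 0 between Meis1-high and Meis1-low, unlike the ligands. Krt5, a basal keratin, differed by 2.13 ± 0.79 between Meis1-high and Meis1-low and Krt14 by 1.75 ± 0.82. Of 10 epithelial identity genes, 7 were higher and 2 lower on both slides in Meis1-high cells (median 0.59), beside 31.6% and 40.7% of all genes. Epcam, used in the sort, differed by -0.43 ± 0.78. Trp63 differed by 1.22 ± 0.80 and Psmb11, a cortical proteasome subunit, by 2.24 ± 1.2. Of 9 fibroblast and endothelial markers, 6 were tested, with a median of 0.40. The summed level of this list ranged from 2.66 to 4.02 in Meis1-high cells, 2.61 to 3.57 in Meis1-low cells and 2.33 to 2.91 in Meis1-negative cells. Col1a1 differed by -2.06 ± 0.66, Col3a1 by 1.68 ± 0.72 and Dcn by 1.65 ± 0.78 between Meis1-high and Meis1-low.

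Genes most like a ligand were taken as those with the highest Pearson r to its level over the 6 arrays, a description that shares arrays, scaling and the Meis1-negative replicate 1 array. For Cd80 they were Gm10825, Gpa33 and Csrnp3 (r from 0.995 to 0.997), and 1050 genes had an r above 0.9. For Cd86 they were Sema7a, Ccl22 and Xlr (r from 0.992 to 0.996). For Cd274 they were Gadd45b, Klk14 and Plaat3, for Pdcd1lg2 Plppr5, Fbxw17 and Pea15a, and for Icosl Gsdmc2, Ttyh2 and Ciart, all between 0.994 and 0.999. Cd276 had fewer close matches, with Ilf2 at 0.985, followed by 9130004C02Rik and Bloc1s3, and 52 genes above 0.9.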

How the data were processed

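Per the labels, 10 ng of RNA per pool was amplified before Cy3 labelling. Per the file headers, Agilent Feature Extraction 9.5.3.1 quantified the scans, and the deposited intensity is background-subtracted and detrended within the array, not scaled between arrays. The authors' deposited value table is on a log2 scale, centred per probe by unstated steps (column medians -0.17 to 0.16, correlation with centred scanner levels 0.9999 or above). The mark for well above background is tied by the headers to 13 times the background SD.

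Control and outlier spots were left out, spots averaged per probe, and log2 signals taken relative to the 75th percentile of each array. The filter kept the 26569 of 41174 probes that were well above background on both arrays of a gate. Symbols were updated through RefSeq accessions (26690 probes), other accessions in the row (105), current symbols (5122) or synonyms (929). Gates were compared over all 6 arrays in R 4.3.3 with limma 3.58.1, with Benjamini-Hochberg adjustment over 18205 genes (3 residual and 4.36 prior degrees of freedom), and the code was tested on simulated data. Named genes were all members, up to 4 per list with the smallest p, 3 likeness genes per member, Meis1, Epcam, Ptprc and Aire. A gene that this rule names is not reported here. The members and lists were chosen with earlier results of these data known. Same-numbered replicates share a slide and scan. Replicate differences correlated at 0.209, 0.128 and 0.125 between gates. Alternatives covered background correction, scaling, filter, probes, block, spread, the authors' table, outlier spots and each array left out. Figures used Python 3.11.15 and matplotlib 3.10.9. The number of arrays limits the precision.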

Additional observations from a re-analysis of the deposited data

How the results depend on the processing

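Of 333 member values under the alternatives, 318 kept their direction and their side of the threshold, 13 changed sign and 2 became called. Of the 13, 12 came from leaving out an array, 7 of them Meis1-negative replicate 1. The other was the second Icosl probe, which differed by -0.10 between Meis1-high and Meis1-negative. The 318 is not a measure of robustness, since many of the 333 could not change sign. The block, the variance trend, the filter alternatives and leaving out an array of the gate not compared gave the same difference as the main fit. Over left-out arrays, Meis1-high minus Meis1-negative ranged from -2.05 to 1.85 for Cd80, -0.76 to 1.39 for Cd274, -0.83 to 1.43 for Icosl, -1.11 to 3.0 for Pdcd1lg2 and 0.29 to 3.03 for Cd276. Meis1-low minus Meis1-negative ranged from -1.54 to 4.74 for Cd86, -0.22 to 1.93 for Cd274, -0.22 to 2.04 for Icosl, -0.33 to 3.78 for Pdcd1lg2 and -0.15 to 1.33 for Cd276. Meis1-high minus Meis1-low ranged from -0.30 to 2.44 for Cd276 and -1.57 to 0.018 for Pdcd1lg2. The number of member differences called ranged from 0 to 2 over left-out arrays and was 0 under every other alternative. Counts over all genes, 0 in each comparison, became 230, 303 and 120 with normexp correction (Meis1-high minus Meis1-low, Meis1-high minus Meis1-negative, Meis1-low minus Meis1-negative). With median scaling 74 genes were called for Meis1-high against Meis1-negative and 13 for Meis1-low against Meis1-negative, and with a variance trend and robust fit 4 in the first of these. Over left-out arrays these counts ranged from 0 to 953 and from 0 to 1268, the highest without Meis1-negative replicate 2. The causes were not tested. Replicate number as a replicate block, tried because the gates share it, changed no call (0 member differences and 0 genes in each comparison). Median scaling moved the all-gene median of Meis1-high minus Meis1-negative to -0.20, against -0.10.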
